A study of Mus musculus with 3 samples.

Results

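The comparison described here sets cells labelled as cancer cells from the blood against cells labelled as cancer cells from lung metastases, in the same mouse model of breast cancer, with 1 microarray for each. Its members were chosen by detection: every probe with a gene symbol and a detection p-value under 0.01 on at least 1 of the CCC and MCC arrays, where the detection p-value is the scanner software's measure of how often a blank control bead is as bright as the probe. That rule kept 12042 of 23978 probes with a symbol, of which 9452 were detected on both arrays, 1369 on CCC only and 1221 on MCC only. They stand for 8959 of the 16593 genes named on the array, and each gene is given by its detected probe with the highest mean signal over CCC and MCC.

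The cells were 4T1, a mammary carcinoma line from the BALB/c mouse, marked with GFP and placed in the mammary fat pad of females of strain Balb/C, 10 to 12 weeks old. From such animals, labelled cells were sorted by flow cytometry out of the systemic circulation (CCC), out of metastatic loci in the lung (MCC) and out of the primary breast tumour (PCC). All 3 groups share the line, the marker, the host and the implantation site, so the circulating cells have no untreated counterpart, and PCC is the reference for where both came from. The sources used here do not say how many mice stand behind an array or whether their cells were pooled.

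Macrophages are phagocytes that take up debris and opsonised particles through scavenger and Fc receptors, respond to the growth factor CSF1 and are abundant in mammary tumours and in the lung. The extracellular matrix is the collagen, laminin and proteoglycan mesh around cells, and metalloproteases, cathepsins and the plasmin system cut it, held in check by inhibitors such as the TIMPs. A gene named below is described by the role of its product, as background.

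Detection covered 41.0% of 25697 probes on PCC, 44.6% on CCC and 44.0% on MCC, and deposited intensities averaged 410, 462 and 232 in the same order. Values below are log2 intensities after background modelling and quantile normalization over the 3 arrays, and detected probes began at 5.88 on PCC, at 5.54 on CCC and at 5.60 on MCC. Sums over gene lists are of deposited intensities instead, not scaled between arrays, so the lower average of MCC enters them. Where only CCC or only MCC detected a gene, its fold is a lower bound, written as at least so many fold. At the edge of the rule, 99 probes lay just inside, with a smaller detection p of 0.00877 and log2 intensities of 4.35 to 5.64, and 80 lay just outside, at 0.010 and 4.46 to 5.60. With 1 array per group no difference has a replicate check and no test between the groups is possible, and precision is limited by the number of arrays. The array labelled MCC stood apart from its label in some of its markers. It held genes of fat, with 12 adipocyte markers detected and deposited intensities that sum to 32226, against 1446 on CCC. It also held genes of lymph node stroma (33535 against 8343) and of B cells (8118 against 1972). The surfactant genes Sftpa1, Sftpb and Sftpc and the club cell genes Scgb1a1 and Scgb3a1 were not detected. Of 15 lung epithelium markers with a probe, 5 were detected on MCC, among them Ager and the club cell gene Cyp2f2. The 5 detected markers of the line and the sort, Krt8, Krt18, Cd44, Lgals7 and the leukocyte gene Ptprc, summed to 12571 on PCC, 12138 on CCC and 3367 on MCC. Lgals7 alone made up 4369, 3209 and 49.8 of these. After normalization 2 of the 5, Lgals7 and Cd44, were at least 2-fold higher on CCC and 0 were lower. Probes of Cd44 gave log2 differences of 1.13 and -0.63, so its direction is uncertain. The other 3 lay within 2-fold. Among the 3, Krt18 was at 10.38 on CCC and 11.25 on MCC. Neither the label nor the sort can be checked further here, so each fold below compares the arrays as labelled. In RNA from sorted cells, fewer cells of a type and less RNA per cell cannot be told apart.

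CCC and MCC were widely separated in both directions. Of 8959 genes, 1461 (16.3%) were at least 2-fold higher on CCC and 1636 (18.3%) at least 2-fold lower, bounds included, which makes 34.6% of all genes past 2-fold. At 4-fold the counts were 441 (4.92%) and 530 (5.92%). The median difference over all genes was -0.03, with quartiles of -0.73 and 0.64. The split rested on the scaling between arrays, since without it 3554 genes were higher and 643 lower, 84.7% against 47.2% of the genes past 2-fold, and the median of all genes was 0.72. The plot of gene lists by direction shows how the lists used below divide against these shares. Each count of list members below is to be read beside them, 16.3% higher and 18.3% lower.

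**Figure D1:**
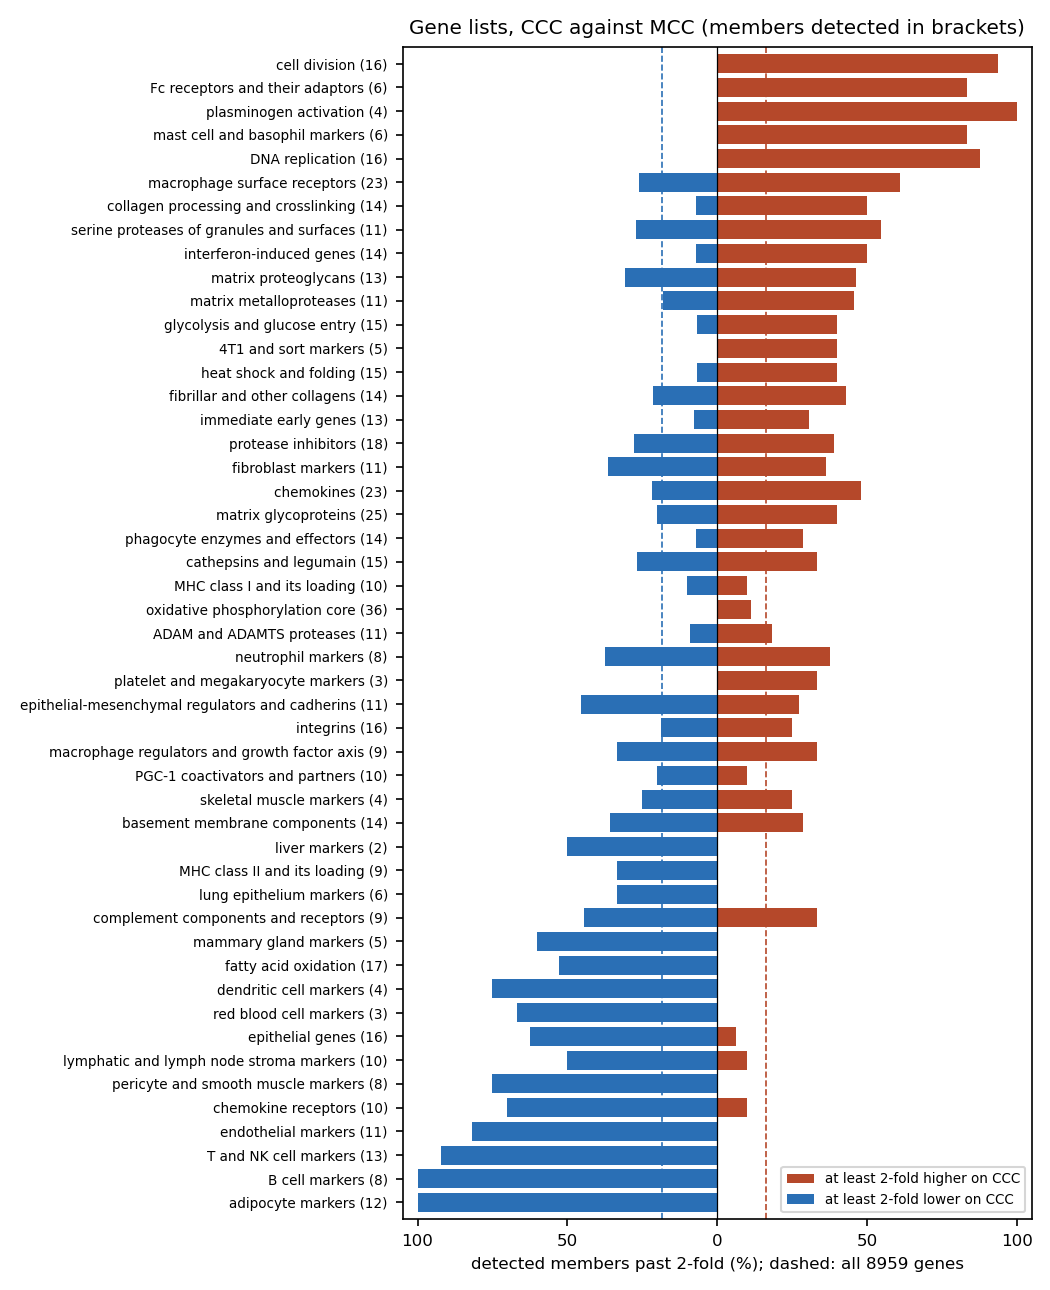
Share of the detected members of each gene list that were at least 2-fold higher (right) or lower (left) on CCC than on MCC, in percent, with the number of detected members in brackets and lists ordered by median difference. Dashed lines mark all 8959 genes, 16.3% higher and 18.3% lower. The cell division list is at the top and the adipocyte list at the foot.

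Macrophage genes split by kind. Of 61 detected members of the macrophage lists, 29 were at least 2-fold higher on CCC and 14 lower, against 16.3% and 18.3% of all genes, and their median difference was 0.52 beside -0.03 over all genes. Receptors and Fc receptors were the higher groups on CCC, while transcription factors of the lineage and complement regulators were mostly not. Set against PCC, which shares its array with both, the median of the same genes was 1.31 for CCC and 0.34 for MCC.

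Most surface receptors were higher on CCC. Of 23 detected members, 14 were at least 2-fold higher on CCC and 6 lower, with a median of 1.28. Adgre1, the adhesion receptor that serves as the standard mouse macrophage marker, stood at 7.77 on PCC, 10.25 on CCC and 5.90 on MCC. Its fold was 20.3 on that probe, and its other probes gave log2 differences of 3.56 and 1.22. Trem2, a lipid-sensing receptor of tissue macrophages, stood at 7.26 on PCC, 9.61 on CCC and 5.90 on MCC, 13.1-fold higher on CCC. The mannose receptor Mrc1 was at 8.59, 11.09 and 7.49 on PCC, CCC and MCC, 12.2-fold higher on CCC than on MCC. Clec7a, which binds fungal glucan, was at 8.09, 9.50 and 5.94, an 11.8-fold difference that its other probes gave as 3.43 and 2.56 on the log2 scale. For these 4 receptors CCC was the highest of the 3 arrays and MCC the lowest, close to its lowest detected level for all but Mrc1.

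Further receptors were higher on CCC, some of them without detection on the other arrays. The folate receptor Folr2 (8.28 on CCC) and the complement receptor Vsig4 (7.47 on CCC) were detected on CCC alone, at least 6.41-fold and 3.66-fold higher than MCC. Ms4a7, a membrane protein of resident macrophages, stood at 5.97 on PCC, 9.78 on CCC and 7.21 on MCC, a 5.94-fold difference between CCC and MCC. The fractalkine receptor Cx3cr1 was at 7.07, 9.70 and 7.34, 5.12-fold higher on CCC than on MCC. Lyve1, a hyaluronan receptor of lymphatic vessels and of some macrophages, was not detected on PCC and stood at 8.0 on CCC and 6.72 on MCC, 2.43-fold higher on CCC. By contrast the efferocytosis receptor Axl was as high on PCC (13.15) as on CCC (13.17) and 4.08-fold lower on MCC, at 11.14. The endotoxin-sensing genes Tlr2 (3.65-fold), Tlr4 (2.91-fold) and Cd14 (2.13-fold) were higher on CCC too, with PCC within 2-fold of CCC for each.

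On their brightest probes, 6 receptors were at least 2-fold lower on CCC. Timd4, a phosphatidylserine receptor, was not detected on PCC and stood at 7.19 on CCC and 10.36 on MCC, 9.0-fold lower on CCC. Clec10a, a lectin of macrophages and dendritic cells, was at 6.43 on CCC and 8.38 on MCC, 3.87-fold lower. Sialoadhesin (Siglec1), which lines lymph node sinuses, was at 6.72 on PCC, 9.05 on CCC and 10.42 on MCC, 2.58-fold lower on CCC than on MCC. The scavenger receptor Marco, typical of alveolar macrophages, was detected on MCC only, at 7.13, so CCC was at least 3.0-fold lower. The maturation marker Cd83 was 2.86-fold lower on CCC. Cd86, a costimulatory ligand, had probes at -1.33, -1.48 and 1.24, so its direction is uncertain.

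Fc receptors, which bind antibody-coated particles, and their adaptors were the most uniform macrophage group. Of 6 detected members, which include Tyrobp and Sirpa, 5 were at least 2-fold higher on CCC, 0 were lower, and the median was 2.24. Fcgr4 stood at 10.49 on PCC, 11.39 on CCC and 6.80 on MCC, 24.2-fold higher on CCC than on MCC. Fcgr3 was at 9.91, 11.61 and 8.83, a 6.87-fold difference. The high-affinity receptor Fcgr1 was at 5.97 on PCC and 7.95 on CCC and was not detected on MCC, at least 5.11-fold higher on CCC. Fcgr2b, the inhibitory receptor of the family, was 4.34-fold higher on CCC on its main probe, and its other probes gave 2.19 and 0.38. The adaptor Tyrobp, through which TREM2 signals, stood at 7.41 on PCC, 10.09 on CCC and 8.81 on MCC, 2.42-fold higher on CCC.

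The growth factors and transcription factors of the lineage went apart. Csf1, the growth factor that macrophages need to survive, stood at 7.82 on PCC, 9.36 on CCC and 6.45 on MCC, 7.56-fold higher on CCC. Il34, the second ligand of the same receptor, was detected on CCC (7.61) and not on MCC, at least 4.03-fold higher. Cebpb, a transcription factor of myeloid cells that many tumour cells also make, was at 13.34, 12.08 and 10.41 on PCC, CCC and MCC, 3.19-fold higher on CCC than on MCC. The lineage regulator Spi1, which encodes PU.1, differed by 1.13-fold only, at 6.62 on CCC and 6.80 on MCC. Irf8, required for monocytes and dendritic cells, was at 9.31 on CCC and 11.17 on MCC, 3.65-fold lower on CCC. The oxysterol receptor Nr1h3 was at 6.30 on CCC and 10.18 on MCC, 14.8-fold lower, and it is active in fat and liver as well as in macrophages. Of 9 detected members of this list 3 were higher and 3 lower.

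Of 14 detected phagocyte enzymes and effectors, 4 (28.6%) were at least 2-fold higher on CCC and 1 (7.14%) lower. The shares of all genes were 16.3% and 18.3%. Arginase (Arg1) stood at 11.00 on PCC, 12.32 on CCC and 7.25 on MCC, 33.6-fold higher on CCC than on MCC. The lysosomal glycoprotein Gpnmb was at 12.28, 10.97 and 7.89, an 8.49-fold difference in which PCC was the highest. The chitinase-like Chil3 was detected on PCC (9.08) and CCC (7.95) and not on MCC, at least 5.11-fold higher on CCC. Of the other 11 detected members, haem oxygenase Hmox1 (at least 2.33-fold higher) and the lipoprotein Apoe (2.31-fold lower) passed 2-fold. The resistin-like Retnla, detected on PCC (6.19) and MCC (6.53) and not on CCC, was at least 1.98-fold lower on CCC. Lyz1 and Lyz2, near-identical lysozyme genes whose probes may share targets, lay within 2-fold on their brightest probes, but other Lyz1 probes gave -1.72 and -2.93 and other Lyz2 probes 1.49 and 1.09.

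Complement divided between the first component and its regulators. The 3 chains of C1q, which macrophages secrete, were all higher on CCC: C1qc stood at 9.91 on PCC, 12.14 on CCC and 9.25 on MCC (7.42-fold), C1qb was 4.89-fold higher and C1qa 4.72-fold higher. The C1 inhibitor Serping1 was at 7.03, 8.99 and 11.39 on PCC, CCC and MCC, 5.29-fold lower on CCC than on MCC. Cd55, a membrane brake on complement, was at 5.82 on CCC and 8.69 on MCC, 7.36-fold lower. The components C2 (2.27-fold) and C4b (2.11-fold) were lower as well, though C4b showed no difference without scaling between arrays, at a log2 difference of 0.0011.

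Beside these macrophage values, other blood cell genes were present on both arrays. Ptprc, carried by all leukocytes, was not detected on PCC and stood at 6.48 on CCC and 7.25 on MCC, 1.70-fold lower on CCC. The keratin Krt8 of the tumour line was at 12.27, 12.24 and 11.44 on PCC, CCC and MCC, and Krt18 at 10.09, 10.38 and 11.25. Summed deposited intensity over the detected surface receptors, with values below 0 taken as 0, came to 15003 on PCC, 26450 on CCC and 6322 on MCC. Axl, the brightest receptor, made up 10888, 11499 and 1323 of these, and without it, a count added after the values were seen, the sums were 4114, 14950 and 4999. CCC was the highest array either way, while PCC lay above MCC only with Axl counted. What share of any macrophage gene's signal came from macrophages in the sorted cells was not tested. The plot of macrophage genes by array shows CCC at the right-hand end for most receptors and MCC at the right-hand end for the genes at the foot of each panel.

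**Figure D2:**
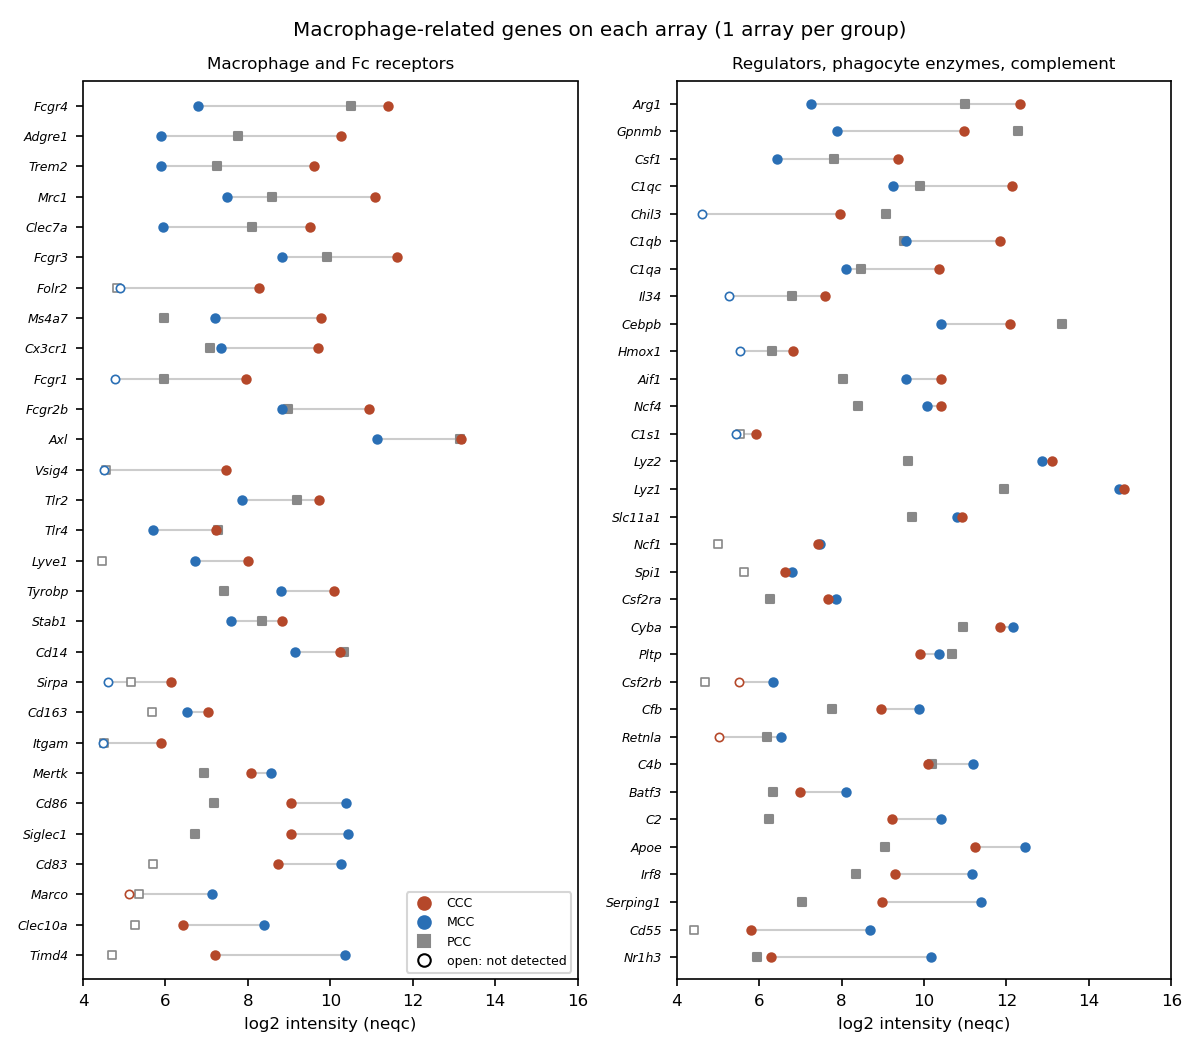
Log2 intensity of each detected macrophage, Fc receptor and complement gene on the PCC (square), CCC and MCC arrays (circles), 1 array per group, with open symbols where the probe was not detected, ordered by the difference between CCC and MCC. Fcgr4 (11.39 on CCC, 6.80 on MCC) and Arg1 (12.32 and 7.25) head the panels, and Timd4 (7.19 and 10.36) and Nr1h3 (6.30 and 10.18) end them.

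Chemokines followed the macrophage genes in number and went both ways. Of 23 detected members 11 (47.8%) were at least 2-fold higher on CCC and 5 (21.7%) lower, with a median of 0.40. The shares of all genes were 16.3% and 18.3%. Ligands that draw monocytes were higher on CCC: Ccl12 stood at 8.11 on PCC, 11.49 on CCC and 7.06 on MCC, 21.6-fold higher on CCC than on MCC. Ccl9 was at 9.26, 11.58 and 8.02, an 11.8-fold difference, and Ccl8 at 8.04, 10.61 and 7.27, a 10.1-fold difference. Ccl7 (9.55 on CCC) and Ccl6 (9.03 on CCC) were not detected on MCC, at least 15.5-fold and 10.8-fold higher on CCC. Ligands that place lymphocytes in lymph nodes were lower on CCC and absent from detection on PCC. Among them Cxcl12 stood at 6.92 on CCC and 11.27 on MCC (20.4-fold lower), Ccl21a at 10.64 and 14.14 (11.3-fold), Ccl19 at 8.47 and 11.35 (7.39-fold) and Cxcl13 at 9.14 and 11.75 (6.10-fold). Ccl5, which T cells make, was at 9.03, 10.59 and 13.23 on PCC, CCC and MCC, 6.23-fold lower on CCC than on MCC. Of 10 chemokine receptors detected, 1 was at least 2-fold higher on CCC (Cx3cr1) and 7 lower, with Ccr6 at 7.91 on CCC and 11.68 on MCC, 13.7-fold lower.

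Matrix genes were higher on CCC more often than genes in general. Of 80 detected members, 33 were at least 2-fold higher on CCC and 18 lower, against 16.3% and 18.3% of all genes, and the median difference was 0.65. For 30 of the 51 past 2-fold PCC lay within 2-fold of CCC only, as it did for 67.8% of all 3097 genes past 2-fold. Collagens and their processing enzymes had more members higher than lower on CCC, and the basement membrane genes divided.

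The largest matrix difference was in Mgp, matrix Gla protein, an inhibitor of calcification. It stood at 14.04 on PCC, 13.24 on CCC and 8.10 on MCC, 35.3-fold higher on CCC than on MCC. The syndecan Sdc2, a cell surface heparan sulfate proteoglycan, was at 11.75, 11.85 and 8.04, a 14.1-fold difference, and the glypican Gpc1 at 12.91, 12.81 and 10.47, a 5.08-fold difference. Emilin2, an elastin interface glycoprotein, was at 9.05, 9.48 and 6.23, 9.55-fold higher on CCC than on MCC. The YAP target Ccn2 was at 13.53, 12.99 and 10.16, a 7.09-fold difference. Its relative Ccn1 was detected on PCC (8.70) and CCC (7.58) and not on MCC, at least 3.94-fold higher on CCC. In all 6 of these genes PCC lay on the side of CCC.

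Collagens outside the basement membrane list were more often higher than lower. Of 14 detected, 6 (42.9%) were at least 2-fold higher and 3 (21.4%) lower, with a median of 0.73. The shares of all genes were 16.3% and 18.3%. Col18a1, the source of endostatin, stood at 11.07 on PCC, 11.48 on CCC and 8.65 on MCC, 7.13-fold higher on CCC. Col5a1, which sets fibril width, was at 10.74, 11.27 and 8.90, a 5.16-fold difference, and Col16a1 was 4.15-fold higher. Type I collagen had another pattern, since Col1a2 was not detected on PCC and stood at 8.26 on CCC and 5.78 on MCC, 5.57-fold higher on CCC. Col1a1 was at 7.0, 9.12 and 8.03, a 2.12-fold difference, and Col3a1 at 6.16, 8.97 and 8.34, a 1.54-fold difference. The hemidesmosome collagen Col17a1 was detected on MCC only, at 7.66, so CCC was at least 4.35-fold lower.

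The enzymes that fold, trim and crosslink collagen were among the more uniform matrix groups. Of 14 detected members, 7 were at least 2-fold higher on CCC, 1 was lower and the median was 1.19, with PCC within 2-fold of CCC only for 7 of these 8. Pcolce2, which speeds the removal of the collagen propeptide, stood at 8.29 on PCC, 9.65 on CCC and 5.99 on MCC, 12.6-fold higher on CCC. Its relative Pcolce was 4.88-fold higher and the propeptide protease Bmp1 4.38-fold higher. The lysyl hydroxylase Plod2, which acts on collagen telopeptides, was at 10.48, 9.79 and 6.45, a 10.2-fold difference. The collagen chaperone Serpinh1 was at 9.69, 9.54 and 7.47, a 4.18-fold difference. Lysyl oxidase (Lox) was the exception, at 7.41, 7.63 and 8.95, 2.51-fold lower on CCC than on MCC.

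Basement membrane genes went both ways, 4 (28.6%) at least 2-fold higher and 5 (35.7%) lower of 14, beside 16.3% and 18.3% of all genes. Col4a1 stood at 9.67 on PCC, 10.72 on CCC and 12.10 on MCC, 2.60-fold lower on CCC than on MCC. Its partner chain Col4a2, at 9.23, 10.19 and 11.20, was 2.01-fold lower, a difference of 0.068 the other way without scaling between arrays. Nidogen (Nid1), which links laminin to type IV collagen, was at 6.27, 7.45 and 9.66, 4.62-fold lower on CCC. The epithelial laminin chain Lamb3 was detected on MCC only (7.68), at least 4.41-fold lower on CCC, and Lamb2 was 3.37-fold lower. Against these, Col4a5 was at 8.16, 8.20 and 5.75, 5.46-fold higher on CCC, and Lamb1 was detected on CCC (7.09) and not on MCC, at least 2.82-fold higher.

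A further set of glycoproteins and proteoglycans was lower on CCC. Prelp, a leucine-rich proteoglycan that binds collagen, was not detected on PCC and stood at 7.73 on CCC and 11.49 on MCC, 13.6-fold lower on CCC. Vitronectin (Vtn) was at 5.62 on CCC and 9.10 on MCC, 11.1-fold lower. Tenascin X (Tnxb) was at 7.08 on PCC, 5.67 on CCC and 9.14 on MCC, 11.1-fold lower on CCC, and its 3 probes differed by -3.33 to -3.47. Elastin (Eln) was detected on PCC (6.13) and MCC (8.96) and not on CCC, at least 10.7-fold lower. The endothelial von Willebrand factor (Vwf) was at 6.54, 6.64 and 9.21, 5.93-fold lower on CCC. Biglycan (Bgn) was 2.13-fold lower on CCC but 0.052 higher on the log2 scale without scaling between arrays, and probes of decorin (Dcn) gave -0.69 and 1.13, so neither has a settled direction.

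Other cells make much of this matrix, and their markers stood as follows. Of 12 fibroblast markers with a probe, 11 were detected on both arrays, of which 4 were higher on CCC by 2-fold or more and 4 lower, with Pdgfra (11.12 on CCC, 9.03 on MCC) 4.27-fold higher and Thy1 (10.18 and 12.66) 5.57-fold lower. Summed over the list, deposited intensities not scaled between arrays gave 13036 on PCC, 15374 on CCC and 11271 on MCC. These arrays averaged 410, 462 and 232 over all probes, so the sums do not rank them. Postn was not detected. Endothelial markers, which include Vwf, had 0 members higher and 9 of 11 lower on CCC, with sums of 1937, 5098 and 10166. Pericyte and smooth muscle markers had 0 higher and 6 of 8 lower, with sums of 432, 2889 and 4295. The part of these cells in the matrix differences was not tested.

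Proteases and their inhibitors also leaned to CCC. Of 70 detected members, 29 were at least 2-fold higher on CCC and 15 lower, against 16.3% and 18.3% of all genes, with a median of 0.63. Metalloproteases, plasminogen activation and granule proteases were higher in part, and the ADAM family was level on the whole.

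The metalloproteases higher on CCC sit mainly in 1 stretch of chromosome 9. Mmp13, an interstitial collagenase, stood at 10.17 on PCC and 9.54 on CCC and was not detected on MCC, at least 15.3-fold higher on CCC. Macrophage elastase (Mmp12) was at 8.82 on PCC and 9.45 on CCC and not detected on MCC, at least 14.5-fold higher. Stromelysin Mmp3 was at 12.17, 11.21 and 8.06, an 8.87-fold difference that its other probes gave as 3.98 and 3.39 on the log2 scale. The second stromelysin, Mmp10, was dim, at 6.37 on PCC and 6.69 on CCC and not detected on MCC, at least 2.13-fold higher on CCC. Of 10 metalloprotease genes that neighbour each other from Mmp13 to Mmp7, 9 have a probe and 5 were detected, and these 4 were at least 2-fold higher on CCC and 0 lower. The fifth, Mmp1a, was chosen after its values were seen and stood at 6.48, 6.06 and 6.31 on PCC, CCC and MCC.

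The promoters of these 4 neighbours are shown because they were higher together and share a motif. The sequences run from 250 bases before to 50 bases after the annotated start and come from RefSeq, build GRCm38.p6. Capitals mark matches to TGANTCA, the core recognised by AP-1, the dimer of FOS and JUN proteins, searched on both strands.
Mmp13 (chr9:7272264-7272563, plus strand): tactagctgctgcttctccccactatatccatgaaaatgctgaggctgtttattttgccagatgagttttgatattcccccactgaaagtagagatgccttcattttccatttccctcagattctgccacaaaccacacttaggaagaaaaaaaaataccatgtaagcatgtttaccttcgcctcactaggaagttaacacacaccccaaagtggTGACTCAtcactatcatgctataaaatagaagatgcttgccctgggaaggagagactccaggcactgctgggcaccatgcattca
Mmp12 (chr9:7347124-7347423, plus strand): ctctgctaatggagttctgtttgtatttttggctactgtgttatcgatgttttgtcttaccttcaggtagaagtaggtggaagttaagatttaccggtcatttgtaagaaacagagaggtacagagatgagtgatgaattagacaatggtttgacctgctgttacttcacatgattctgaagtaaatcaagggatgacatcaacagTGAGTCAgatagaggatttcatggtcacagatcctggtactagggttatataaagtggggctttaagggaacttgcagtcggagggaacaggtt
Mmp3 (chr9:7445572-7445871, plus strand): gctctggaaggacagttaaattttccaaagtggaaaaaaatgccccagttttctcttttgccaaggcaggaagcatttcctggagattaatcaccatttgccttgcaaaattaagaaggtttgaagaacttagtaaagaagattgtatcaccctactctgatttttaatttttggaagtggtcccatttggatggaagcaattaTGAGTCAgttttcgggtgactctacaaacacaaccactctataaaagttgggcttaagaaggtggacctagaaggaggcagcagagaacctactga
Mmp10 (chr9:7502092-7502391, plus strand): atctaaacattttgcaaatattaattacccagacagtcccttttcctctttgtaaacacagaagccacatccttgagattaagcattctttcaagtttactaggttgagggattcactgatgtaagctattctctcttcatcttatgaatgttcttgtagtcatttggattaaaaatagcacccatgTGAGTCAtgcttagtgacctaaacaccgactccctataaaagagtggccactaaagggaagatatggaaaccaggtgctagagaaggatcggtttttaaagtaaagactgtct

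Each match lies close to the start, its first base at -35 in Mmp13, -44 in Mmp12, -46 in Mmp3 and -63 in Mmp10. Mmp12 has 2 annotated promoters, and the one with the match is printed. TGANTCA occurred in 7.81% of 32851 mouse promoters of this length, a share per promoter, while a gene counted below if any of its promoters matched. It occurred in 4 of the 8 detected metalloproteases with a promoter in the table, namely these 4, which are also all the metalloproteases at least 2-fold higher on CCC that had one. It occurred in both plasminogen activation genes with a promoter (Plaur and Anxa2) and in 2 of 16 protease inhibitors. The motif was chosen after the gene values were seen, and a match describes the letters and does not show that a factor binds there. Of the AP-1 genes themselves, Fos was at 8.82 on CCC and 7.69 on MCC (2.20-fold higher on CCC), Jun at 8.81 and 8.15 (1.58-fold higher) and Junb at 9.94 and 10.16 (1.16-fold lower).

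Other metalloproteases went their own way. Gelatinase Mmp9, made by neutrophils, macrophages and tumour cells, stood at 7.47 on PCC, 8.79 on CCC and 6.81 on MCC, 3.95-fold higher on CCC. The membrane-bound Mmp14 was bright on each array and 1.79-fold higher on CCC. The other gelatinase, Mmp2, was 1.42-fold lower on CCC. Mmp23 was at 6.44 on CCC and 8.86 on MCC, 5.33-fold lower on CCC, and the stromal Mmp11 at 7.24, 6.47 and 7.97, 2.82-fold lower than on MCC. In all, 5 of 11 detected metalloproteases were at least 2-fold higher on CCC and 2 lower. Among 11 detected ADAM and ADAMTS genes 2 were higher, the aggrecanase Adamts4 (5.92-fold) and the sheddase Adam9 (10.36 on CCC and 7.97 on MCC, 5.26-fold). The adhesion-type Adam23 was lower (5.24-fold). That made 18.2% of the list higher and 9.09% lower, beside 16.3% and 18.3% of all genes.

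The plasminogen system, which turns plasminogen into the broad protease plasmin at the cell surface, was higher on CCC in each of the 4 members detected. The urokinase receptor Plaur stood at 9.21 on PCC, 8.90 on CCC and 6.09 on MCC, 7.03-fold higher on CCC than on MCC. Urokinase itself (Plau) was at 10.89, 10.61 and 8.65, a 3.89-fold difference. The plasminogen-binding pair S100a10 and Anxa2 was 2.78-fold and 2.68-fold higher. PCC lay within 2-fold of CCC for each of the 4.

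Lysosomal cathepsins went both ways. Of 15 detected members, 5 (33.3%) were at least 2-fold higher on CCC and 4 (26.7%) lower, beside 16.3% and 18.3% of all genes. Legumain (Lgmn) stood at 11.03 on PCC, 12.08 on CCC and 9.75 on MCC, 5.04-fold higher on CCC. Ctss, an antigen-processing cathepsin of macrophages, was at 8.65, 10.03 and 8.0, a 4.08-fold difference, and Ctsl at 9.80, 8.32 and 6.01, a 4.97-fold difference. Ctsc, which activates granule proteases, was not detected on MCC, at least 4.73-fold higher on CCC. Ctsw, known from T and natural killer cells, was at 6.39, 7.69 and 11.03, 10.2-fold lower on CCC than on MCC. Ctse was at 8.35 on CCC and 10.65 on MCC, 4.93-fold lower. The most widely made cathepsins, Ctsb (1.16-fold) and Ctsd (1.10-fold), did not reach 2-fold.

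Granule proteases of mast cells were a feature of CCC. The tryptase Tpsab1 stood at 6.43 on PCC, 9.98 on CCC and 5.96 on MCC, 16.3-fold higher on CCC than on MCC. Carboxypeptidase Cpa3 (8.30) and the chymases Cma1 (7.25) and Mcpt4 (6.77) were detected on CCC alone, at least 6.49-fold, 3.14-fold and 2.25-fold higher than on MCC. The second tryptase, Tpsb2, was 2.38-fold higher. Of 8 mast cell and basophil markers with a probe, 6 were detected and 5 at least 2-fold higher on CCC, with summed intensities of 91.2 on PCC, 2198 on CCC and 134 on MCC. Their part in the protease difference was not tested, although they make up 5 of the 6 granule and surface proteases at least 2-fold higher on CCC, the sixth being Htra1.

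Surface and secreted serine proteases outside the granules were split. Htra1, a secreted protease that cuts matrix proteins, stood at 12.13 on PCC, 12.26 on CCC and 8.51 on MCC, 13.5-fold higher on CCC, and its probes differed by 3.75 and 3.77. The epithelial membrane protease Tmprss2 was bright on MCC (12.08) and not detected on PCC or CCC, at least 93.2-fold lower on CCC, the largest bound among the protease genes. Matriptase (St14) was detected on MCC only, at 7.51, at least 3.91-fold lower on CCC.

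Of the protease and inhibitor genes detected on both arrays, 3 inhibitors, Slpi, Timp1 and Wfdc18, differed the most. Slpi, an elastase inhibitor of mucosal surfaces, stood at 14.73 on PCC, 14.70 on CCC and 9.39 on MCC, 39.7-fold higher on CCC than on MCC. The metalloprotease inhibitor Timp1 was at 11.91, 11.88 and 6.83, a 33.2-fold difference on this probe and 5.26 on the log2 scale on its other probe. Timp2 was 2.98-fold higher and Timp3 1.08-fold higher on its brightest probe. A second, dimmer Timp3 probe was at 6.82 on CCC and 4.92 on MCC, a log2 difference of 1.90. Timp4, detected on MCC only, was at least 2.33-fold lower, so the 4 TIMP genes did not go together. Wfdc17, a secreted protein of activated macrophages, was at 7.33 on PCC and 9.77 on CCC and not detected on MCC, at least 18.1-fold higher on CCC. Lower on CCC were Wfdc18 (6.48 on CCC and 10.79 on MCC, 19.8-fold) and the acute phase inhibitor Serpina3n (8.26 and 11.55, 9.79-fold). Of 18 detected inhibitors, 7 (38.9%) were at least 2-fold higher on CCC and 5 (27.8%) lower, beside 16.3% and 18.3% of all genes. The plot of matrix and protease genes by array shows the PCC mark beside the CCC mark for many of the genes at the top of each panel.

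**Figure D3:**
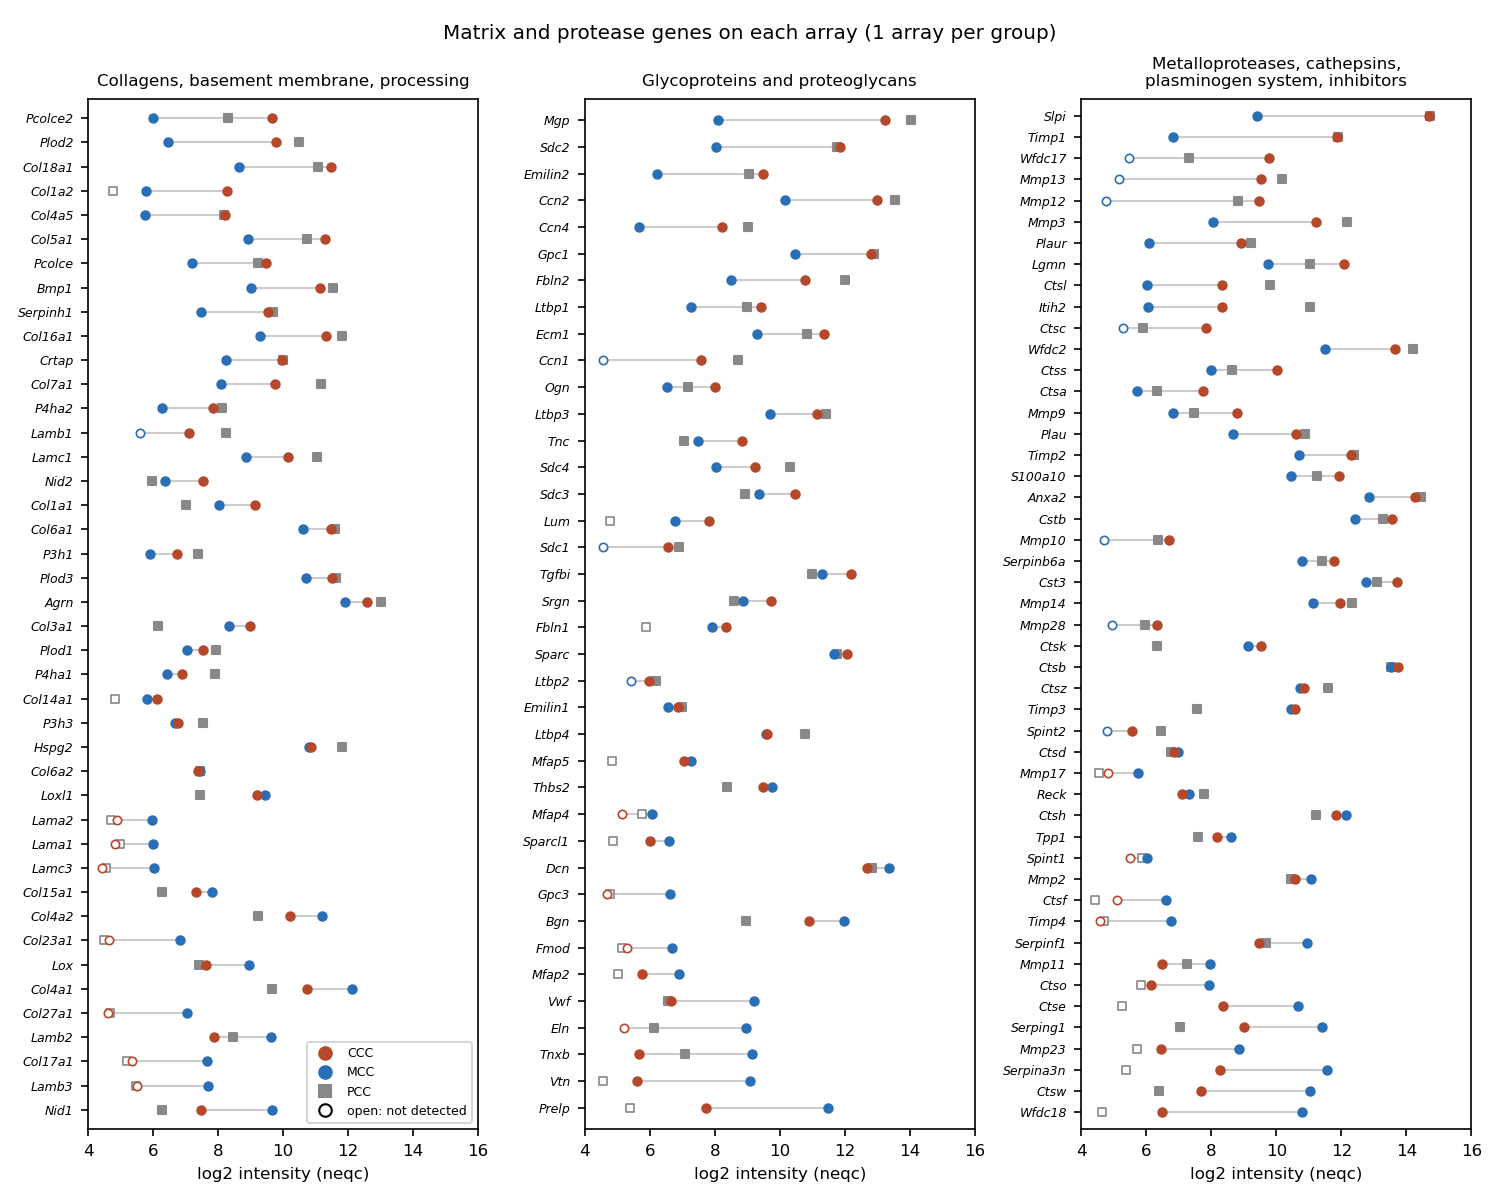
Log2 intensity of each detected collagen, basement membrane, processing, glycoprotein, proteoglycan, metalloprotease, cathepsin, plasminogen and inhibitor gene on the PCC (square), CCC and MCC arrays (circles), 1 array per group, with open symbols where the probe was not detected. Slpi and Timp1 (14.70 and 11.88 on CCC against 9.39 and 6.83 on MCC) and Mgp (13.24 and 8.10) head their panels, and Wfdc18 (6.48 and 10.79), Prelp (7.73 and 11.49) and Nid1 (7.45 and 9.66) end them.

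Integrins, the receptors that hold cells to this matrix, were uneven. The laminin receptor chain Itga3 stood at 11.74 on PCC, 11.48 on CCC and 7.37 on MCC, 17.3-fold higher on CCC than on MCC. Its hemidesmosome counterpart Itgb4 was at 10.70, 11.42 and 8.51, a 7.53-fold difference. The lymphocyte chains Itgb7 (8.98 on CCC and 11.51 on MCC, 5.78-fold) and Itgae (7.87 and 9.50, 3.10-fold) were lower on CCC. Of 16 detected, 4 (25%) were at least 2-fold higher and 3 (18.8%) lower, beside 16.3% and 18.3% of all genes.

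Cell division genes were higher on CCC. Of 16 detected cell division genes 15 were at least 2-fold higher on CCC and 0 lower, with a median of 2.82, and PCC lay within 2-fold of CCC only for all 15. The cytokinesis scaffold Anln stood at 11.97 on PCC, 11.77 on CCC and 6.21 on MCC, 46.9-fold higher on CCC than on MCC on this probe, while its other probe gave 1.76 on the log2 scale. The decatenating enzyme Top2a was at 10.67, 10.54 and 6.77, a 13.6-fold difference, and the mitotic kinase Plk1 at 9.71, 10.01 and 6.60, a 10.7-fold difference. Genes of DNA replication followed, 14 of 16 at least 2-fold higher on CCC and 0 lower, with a median of 1.42 and the thymidylate synthase Tyms (10.15 on CCC and 7.07 on MCC) 8.45-fold higher.

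Cell division promoters are shown because no other list with more than 10 detected members had so large a share higher on CCC. Capitals mark TTTGAA or TTCGAA on either strand, the letters of the cell cycle homology region (CHR) through which the DREAM and MuvB complexes time mitotic genes. The source, build and window are those given for the metalloproteases.
Cdk1 (chr10:69352863-69353162, minus strand): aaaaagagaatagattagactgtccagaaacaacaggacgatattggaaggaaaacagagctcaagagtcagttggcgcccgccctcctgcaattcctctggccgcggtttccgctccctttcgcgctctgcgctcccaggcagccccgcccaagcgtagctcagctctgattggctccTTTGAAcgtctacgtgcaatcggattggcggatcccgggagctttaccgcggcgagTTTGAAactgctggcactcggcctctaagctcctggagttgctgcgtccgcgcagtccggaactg
Anln (chr9:22389157-22389456, minus strand): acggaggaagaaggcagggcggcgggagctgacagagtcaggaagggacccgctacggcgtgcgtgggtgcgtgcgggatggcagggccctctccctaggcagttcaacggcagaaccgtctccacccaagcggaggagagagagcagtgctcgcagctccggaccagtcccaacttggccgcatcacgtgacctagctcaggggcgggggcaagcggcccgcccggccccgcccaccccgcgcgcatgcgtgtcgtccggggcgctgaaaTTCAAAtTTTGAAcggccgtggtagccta

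In Cdk1, the kinase that starts mitosis, the matches begin at -71 and -15 from the start, and in Anln at 21 and 28, side by side without overlap. One of these letter runs occurred in 13 of the 15 detected cell division genes with a promoter in the table, and in 19.2% of all 32851 promoters. Here too a gene counted if any of its promoters matched, while the share is per promoter. Among the 14 such genes at least 2-fold higher on CCC it occurred in 12. A search of macrophage promoters for GAGGAAGT, a PU.1 core, found it in 0 of 15 surface receptors. It occurred in 1 of 4 genes of the list of Fc receptors and adaptors (Fcgr4), against 3.20% of all promoters. No match says only that these letters are missing from this window.

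Metabolic and stress genes differed by list, beside 16.3% of all genes at least 2-fold higher on CCC and 18.3% lower. Glycolysis had 6 of 15 members at least 2-fold higher on CCC and 1 lower, with the neuronal-type transporter Slc2a3 (7.04 on CCC, 8.80 on MCC) as the lower one at 3.40-fold. Of 36 detected core genes of oxidative phosphorylation 32 lay within 2-fold. Fatty acid oxidation had 0 of 17 higher and 9 lower on CCC, with the mitochondrial carnitine transferases Cpt1b (5.62 and 7.59) and Cpt2 (8.40 and 10.28) 3.92-fold and 3.66-fold lower. These counts rest on the brightest probe of each gene. In this list Acadl had probes at -1.47 and 1.21, so its direction is uncertain. Acaa2 was at -1.86 on its brightest probe and at 0.14, 0.32 and 0.51 on the others. Slc25a20 had probes at -1.93 and 0.14. Interferon-induced genes were higher on CCC in 7 of 14 members and lower in 1, with Oasl2 (11.24, 11.21 and 8.15 on PCC, CCC and MCC) 8.36-fold higher than on MCC and Mx1 (5.57 on CCC and 6.65 on MCC) 2.11-fold lower. Among heat shock genes 6 of 15 were higher on CCC, led by the endoplasmic reticulum chaperone Hspa5 (8.62, 8.53 and 5.87) at 6.29-fold. The small heat shock gene Hspb1 stood at 8.70 on PCC, 5.72 on CCC and 9.01 on MCC, 9.79-fold lower on CCC, with CCC as the array that stood apart.

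Markers of fat, lymphocytes and epithelium were higher on MCC. Of 14 adipocyte markers with a probe, 12 were detected on MCC, 3 on CCC and 2 on PCC, and all 12 were at least 2-fold lower on CCC. The sums of their intensities were 1053 on PCC, 1446 on CCC and 32226 on MCC. Adiponectin (Adipoq) stood at 12.67 on MCC and was not detected on the other arrays, at least 140-fold lower on CCC, and lipoprotein lipase (Lpl) was at 7.33 on CCC and 13.82 on MCC, 90.3-fold lower. Fabp4 and Retn, also fat cell genes, were not detected on CCC or MCC. The mammary gland list had 3 of 5 detected members lower on CCC, among them Krt14 and Elf5, while the milk genes Csn2, Wap and Lalba were not detected.

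B cell markers had 8 of 8 detected members at least 2-fold lower on CCC, with sums of 67.6 on PCC, 1972 on CCC and 8118 on MCC. Cd79b stood at 9.02 on CCC and 12.18 on MCC, 8.97-fold lower, and Pax5 was not detected. T and natural killer cell markers had 12 of 13 lower, with sums of 1062, 6507 and 17205. Cd3e was at 6.20 on PCC, 8.86 on CCC and 11.26 on MCC, 5.29-fold lower on CCC than on MCC, while Cd8a, Ncr1 and Gzma were not detected. Lymph node stroma genes had 5 of 10 lower and 1 higher, with sums of 550, 8343 and 33535, and Glycam1, the L-selectin ligand of lymph node venules, was at 11.46 on CCC and 14.53 on MCC, 8.44-fold lower. For these lists the order of the arrays was PCC, then CCC, then MCC.

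Epithelial genes were lower on CCC in 10 of 16 detected members and higher in 1. Only 5 were detected on CCC, against 16 on MCC. Cldn4, a tight junction claudin, stood at 10.57 on MCC and was not detected on CCC, at least 32.6-fold lower there, and the epithelial splicing factor Esrp1 at 10.28 on MCC was at least 26.6-fold lower. Tjp1, a junction scaffold, was the exception, at 9.14, 8.90 and 7.32 on PCC, CCC and MCC, 2.99-fold higher on CCC than on MCC.

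Most lung epithelium markers were not detected on either array. Of 15 lung epithelium markers with a probe, 6 were detected, 2 were lower and 0 higher on CCC. Their sums, not scaled between arrays, were 800, 1548 and 1602 on PCC, CCC and MCC. The surfactant genes Sftpa1, Sftpb and Sftpc and the club cell genes Scgb1a1 and Scgb3a1 were not detected on CCC or MCC. Cyp2f2 (7.40) and Ager (7.26) were detected on MCC only, at least 3.64-fold and 3.29-fold lower on CCC. Neutrophil markers went both ways, with S100a8 (10.62 on CCC and 6.42 on MCC) 18.3-fold higher and Ltf (7.02 and 11.99) 31.3-fold lower on CCC. The part of fat, lymph node, blood vessel or lung tissue in the differences between these arrays was not tested. The plot of further lists shows adipocyte, B cell and endothelial genes with MCC to the right throughout, and cell division genes with CCC and PCC together on the right.

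**Figure D4:**
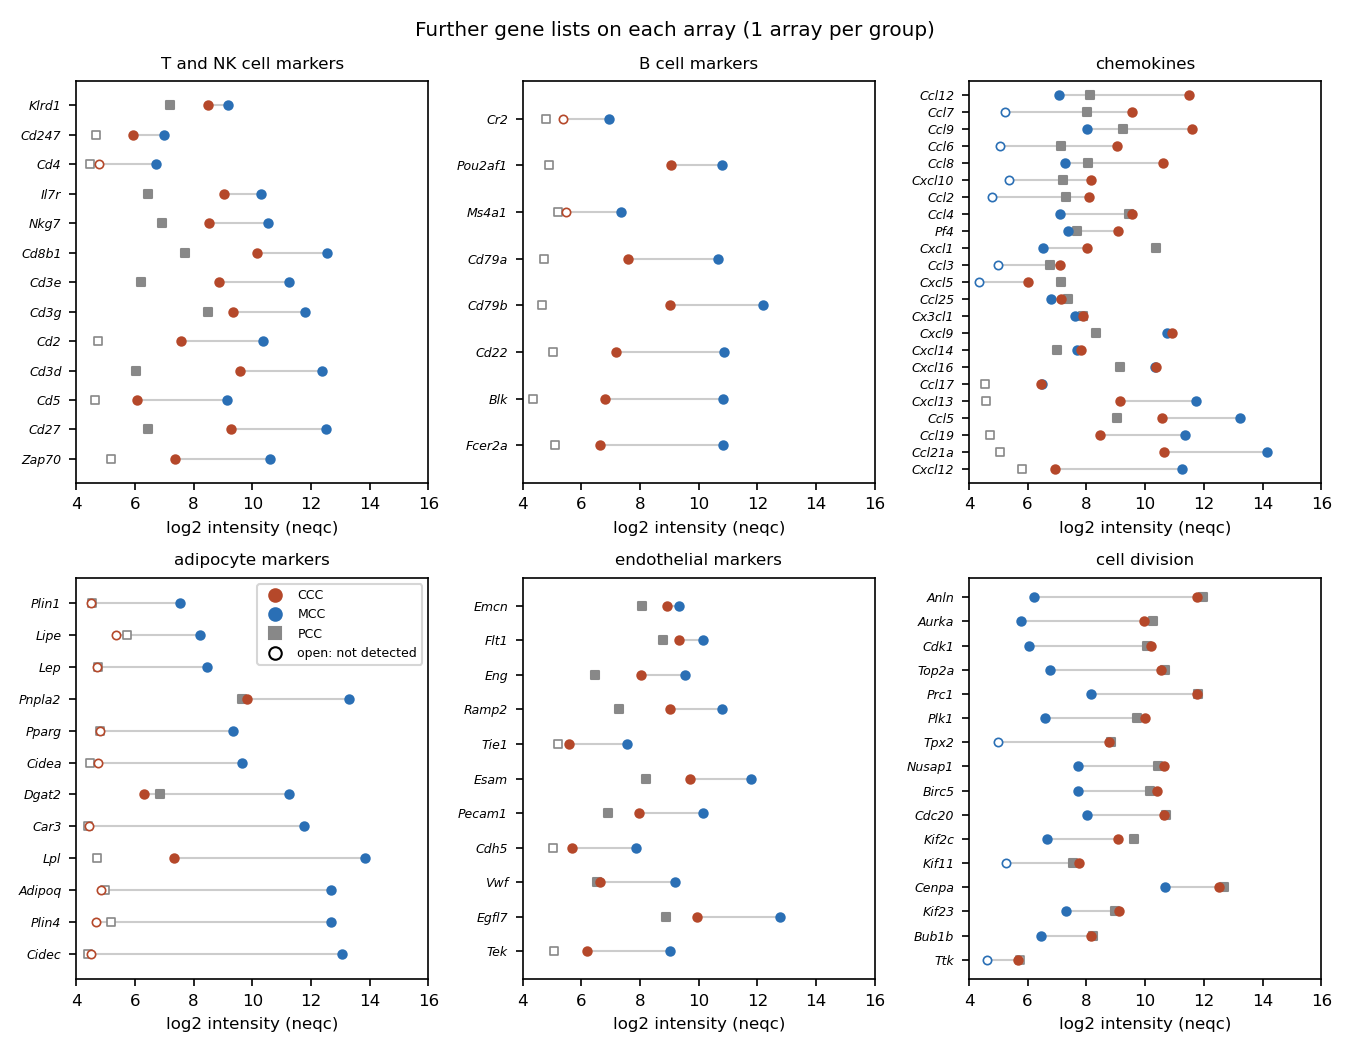
Log2 intensity of each detected member of 6 lists on the PCC (square), CCC and MCC arrays (circles), 1 array per group, with open symbols where the probe was not detected. In the chemokine panel Ccl12 (11.49 on CCC, 7.06 on MCC) and Cxcl12 (6.92 and 11.27) are at opposite ends.

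PCC tells whether a difference set CCC or MCC apart, although all 3 pairs share arrays, so these counts describe and test nothing. Of the 3097 genes at least 2-fold apart between CCC and MCC, PCC lay within 2-fold of CCC only for 2101 (67.8%) and within 2-fold of MCC only for 111 (3.58%). For 523 genes (16.9%) it lay within 2-fold of both, so these passed 2-fold in the CCC and MCC pair and in neither pair with PCC. The remaining genes had PCC below both (246, or 7.94%), above both (69, or 2.23%) or between and 2-fold from each (47, or 1.52%). The plot of the position of PCC shows these counts by direction.

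**Figure D5:**
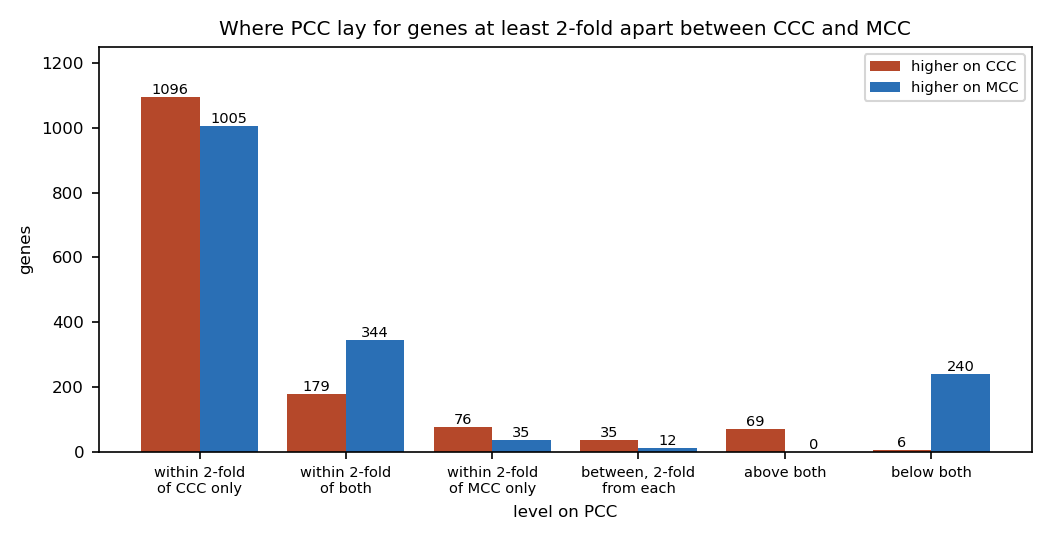
Number of genes at least 2-fold higher on CCC or on MCC, by where the level on PCC lay, with values under the lowest detected level set to it. In the first group, within 2-fold of CCC only, 1096 were higher on CCC and 1005 on MCC, and PCC below both held 240 genes higher on MCC and 6 higher on CCC.

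Where PCC lay within 2-fold of both, the class itself keeps every difference under 4-fold. The largest of these on the higher side were Arsb, a lysosomal sulfatase, at 9.34 on PCC, 10.29 on CCC and 8.42 on MCC (3.67-fold higher on CCC than on MCC), and Gchfr, the regulator of tetrahydrobiopterin synthesis, at 7.45, 8.25 and 6.47 (3.43-fold). In the other direction Eml5, a microtubule-associated protein gene detected on PCC (6.33) and MCC (7.32) and not on CCC, was at least 3.43-fold lower on CCC. Siae, a sialic acid esterase, stood at 6.45, 5.58 and 7.30 (3.30-fold lower on CCC), and the junction protein gene Vezt at 6.76, 6.0 and 7.70 (3.23-fold). Of the macrophage, matrix and protease genes past 2-fold, 3, 4 and 7 fell in this class, against 16.9% of all genes past 2-fold.

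Genes in which CCC alone stood apart included macrophage and mast cell genes. Fcrls, an Fc receptor-like gene of microglia and tissue macrophages, stood at 9.94 on CCC and was not detected on the other arrays, at least 20.3-fold higher than on MCC. Tpsab1, Ccl8, C1qc and Cpa3, described above, followed, and Rcan2, a calcineurin regulator, was at 6.09 on MCC and 9.09 on CCC, 7.99-fold higher on CCC and not detected on PCC. In the other direction the pore-forming Prf1 of cytotoxic lymphocytes stood at 11.08, 9.01 and 11.45 on PCC, CCC and MCC, 5.42-fold lower on CCC than on MCC. Of macrophage genes past 2-fold, 9 of 43 had PCC near MCC only, as had 5 of 51 matrix and 8 of 44 protease genes, beside 3.58% of all 3097 genes past 2-fold.

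Some genes, macrophage genes among them, descended from CCC through PCC to MCC in steps of at least 2-fold. Ms4a6d, a membrane protein of macrophages, stood at 12.47 on CCC, 10.24 on PCC and 7.81 on MCC, 25.3-fold between the ends. The sphingosine kinase Sphk1 was at 12.21, 9.75 and 7.72 (22.4-fold), and the formyl peptide receptor Fpr2 at 9.99 on CCC and 8.51 on PCC, undetected on MCC (at least 21.0-fold). Arg1, Ccl12 and Adgre1 belong to the same class. The opposite order was seen in haptoglobin (Hp), at 11.57 on MCC and 7.20 on PCC and not detected on CCC, at least 65.3-fold lower there than on MCC.

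Among genes not yet described, the highest detected on both arrays were Tns4, a focal adhesion adaptor (12.82, 12.16 and 6.41 on PCC, CCC and MCC, 53.7-fold higher on CCC than on MCC), and the orphan nuclear receptor Nr2f1 (12.98, 12.56 and 6.86, 52.1-fold). The keratinocyte galectin Lgals7 (11.89, 11.31 and 6.28) was 32.7-fold higher and the ligand Wnt7b (12.10, 11.35 and 6.74) 24.4-fold higher. Esm1, a secreted proteoglycan, was at 13.07 on PCC and 12.44 on CCC and not detected on MCC, at least 115-fold higher on CCC. Slc6a2, the noradrenaline transporter, the cytokine Tslp and the neurotrophin Bdnf followed, at least 40.1-fold, 30.1-fold and 27.3-fold higher. These genes were high on both PCC and CCC.

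At the other end the growth factor Ptn was at 5.64 on CCC and 12.33 on MCC, 103-fold lower on CCC, and the cysteine dioxygenase Cdo1 at 6.11 and 12.25, 70.6-fold lower. Igfbp5, a binding protein of insulin-like growth factors that stromal cells and mammary epithelium make, was at 7.21 and 12.30, 34.0-fold lower. Cyp2e1 (13.82 on MCC), Ces1d (13.63) and the major urinary protein gene Mup2 (13.07), whose probe may share targets with near-identical relatives, were detected on MCC only, at least 311-fold, 273-fold and 185-fold lower on CCC. None of these was detected on PCC. Of 9 liver markers with a probe, 2 were detected on CCC or MCC, Trf (1.05-fold lower on CCC) and Serpina1a (detected on MCC only, at least 2.04-fold lower on CCC). Their sums, not scaled between arrays, were 438 on PCC, 1342 on CCC and 748 on MCC, and albumin (Alb) was not detected.

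How far a single probe can be trusted was read from genes with several. For 1670 genes more than 1 probe was detected on CCC and on MCC, and in 17.3% of them the log2 differences lay over 1 apart, with a pooled SD between probes of 0.51. In 8 genes (Acadl, Actb, Atl3, Idh3g, Pmm2, Rsrc1, Snapc3 and Spag9) probes passed 2-fold in opposite directions. For Actb, the cytoskeletal actin, 5 probes ran from -2.23 to 1.46. A difference of 2-fold on 1 probe therefore lies within about 2 such SDs, while those of Arg1, Timp1, Mgp and the other leading genes are larger. This SD compares probes on the same arrays and does not measure the spread between arrays, mice or sorts. Arg1 and Mgp had 1 detected probe each, so they have no second probe to compare.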

How the data were processed

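RNA from 3 sorted cell samples (PCC, CCC and MCC, 1 array each) was hybridised as biotinylated cRNA to Illumina Mouse Ref8 BeadChips, per the labels. The authors deposited a table of probe intensity, not normalized between arrays, with a detection p-value for each probe on each array, per the file headers. The submitters' processing notes name GenomeStudio, in a version that no source used here states. On each array 24.0% to 28.3% of intensities were negative. The authors' second table is a straight line of the same intensities on each array and served as an alternative.

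Intensities were processed with neqc of limma 3.58.1 in R 4.3.3, with background modelled through detection p-values, an offset of 16, quantile normalization and log2. Of 25697 probes, 23978 have 1 symbol, 0 several and 1719 none in the platform annotation, and 23962 were matched by gene ID to RefSeq names (GRCm38.p6, names and promoters only). Bounds take the higher of the lowest detected level and the probe's own value on the other array. Counting used Python 3.11.15 (pandas 2.3.3, numpy 2.4.6) and figures used matplotlib 3.10.9. The normalization was tried on simulated arrays with set folds and a shared scale, and the counting was not. A gene was counted at 2-fold, with no test between arrays.

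The members and the 49 gene lists (774 genes, 702 with a probe, 544 detected) were chosen with earlier results of these data known. The genes named are the 15 highest, 15 lowest and 10 largest bounds each way (no clone, locus or model names), the 6 largest each way in each class of PCC position, members of the macrophage, matrix and protease lists, the 4 highest and 4 lowest of every other list, 8 set genes and genes with opposed probes. Undetected markers and Junb are named outside that rule, after their values were seen, as were the motifs, the lists searched for them and the promoters shown. Of the set genes, Epcam has no probe matched here, Ppargc1a and Sftpc were undetected, and Ppargc1b and Esrra were 3.98-fold and 1.97-fold lower on CCC. The haemoglobin gene Hba-a1 stood at 10.18 on PCC, 9.96 on CCC and 12.75 on MCC. Of 3 detected red blood cell markers, 2 were at least 2-fold lower on CCC and 0 higher.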

Additional observations from a re-analysis of the deposited data

How the results depend on the processing

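Of 11 alternative settings, the scaling between arrays mattered most. Without it 3554 genes were at least 2-fold higher on CCC and 643 lower (84.7% higher), the median of all genes was 0.72, the macrophage, matrix and protease medians were 1.42, 1.45 and 1.34, and the lower counts were 5 macrophage and 8 matrix genes. In that setting Bgn (0.052), Col4a2 (0.068) and C4b (0.0011) changed sign, as did the medians of the lists of macrophage regulators (0.46), complement (0.06), basement membrane (0.03), integrins (0.49), MHC class II (0.32), PGC-1 partners (0.61) and liver (0.21). Scaling to the 75th percentile gave 0.63 for macrophage and 0.55 for protease genes and turned the ADAM list to -0.06, and the authors' second table gave 0.75 for matrix genes and -0.03 for the ADAM list. An offset of 50 gave 0.40 (macrophage) and 0.49 (protease), and no background model 0.53 (matrix) and 0.55 (protease). A detection p under 0.05 gave 0.64, 0.53 and 0.52 for the 3 families, and no filter on dim probes 0.34, 0.22 and 0.12. Without that filter the medians of the metalloprotease (-0.007), complement (0.06), integrin (0.05) and ADAM (-0.06) lists changed sign. Keeping genes detected on both arrays gave 0.86 (matrix, with 11 lower) and 0.89 (protease). It changed the sign of the basement membrane (0.05), epithelial-mesenchymal (0.23) and skeletal muscle (0.26) medians. The mean over probes gave 0.94, 0.73 and 0.79. The probe with the smallest difference gave 0.57 (matrix) and 0.50 (protease), with Cd86 at 1.24 and Ctsa at 0. That probe choice turned the median of the line and sort markers to -0.63 and of MHC class I to -0.04. The family medians stayed above 0 throughout. Of 221 named genes past 2-fold, 216 kept their direction and 171 stayed past 2-fold under each alternative that gave a value; normalizing without PCC gives no position of PCC. Tolerances (from the probe SD and the number of genes for medians, 10 points for shares, 1.5 times for counts) were set after the values were seen. The causes of these shifts were not tested. No paired analysis was possible because each group has 1 array.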
